A study of Mus musculus with 4 samples.

Results

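The genes of the centromere, the kinetochore and the spindle checkpoint were compared between Lgr5-WT and Lgr5-CREPTKO intestinal stem cells, gene by gene and by subcomplex. Members were 38 genes named by symbol, and all 38 were found among the 18436 genes of the table. RNA came from Lgr5-GFP high cells, the brightest cells sorted from small intestines of mice that carry an EGFP and a tamoxifen-inducible Cre recombinase in the Lgr5 gene (Lgr5-EGFP-IRES-creERT2). The 2 Lgr5-WT mice carried this allele alone, and the 2 Lgr5-CREPTKO mice carried it together with CREPT fl/fl. In the latter, Cre acts in cells that express Lgr5 and removes part of the gene of CREPT (Rprd1b) there. Mice of both genotypes received tamoxifen into the peritoneum at 1 mg a day for 5 days, and cells were sorted on day 7. The mice of the study were C57BL/6, male and female, aged 6 to 8 weeks, and which sex gave which library was not given in the sources used here. Lgr5-GFP is mosaic in these mice, so the cells came from the part of the crypts that expresses it.

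A kinetochore is built on each chromosome at nucleosomes that hold the histone variant CENP-A. A network of CENP proteins, the constitutive centromere network, stays on these nucleosomes through the cell cycle, and in mitosis it recruits the NDC80, MIS12 and KNL1 proteins that hold spindle microtubules. Checkpoint proteins on kinetochores without microtubules delay anaphase. Crypt base stem cells divide throughout adult life, so these genes are in regular use in them.

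Values were FPKM (fragments per kilobase of transcript, relative to the mapped total), 1 library a mouse. The libraries held about 18650000 and 18900000 mapped reads in Lgr5-WT mice 1 and 2, and 18800000 and 17950000 in Lgr5-CREPTKO mice 1 and 2, as estimated from the steps of 1 read in small RNA genes. At this depth the values of the members stood for an estimated 72.8 reads (Cenpm in Lgr5-CREPTKO mouse 2) to 2568 reads (Mad2l1), with a median of 443 reads, for which counting error alone is 11.7%, 1.97% and 4.75%. Rprd1b was 17.7 and 18.1 FPKM in Lgr5-WT and 6.65 and 7.36 FPKM in Lgr5-CREPTKO mice, a log2 fold change of -1.29 (SE 0.0946, adjusted p = 0.0280 by limma). This call was lost without the filter on low values (adjusted p = 0.1165) and without limma's intensity trend (adjusted p = 0.0623). It was also lost when any 1 mouse was left out, with log2 fold changes of -1.36 to -1.23. The stem cell marker Lgr5 was 47.7 and 37.7 FPKM in Lgr5-WT and 52.0 and 60.1 FPKM in Lgr5-CREPTKO cells, so the sorted population carried its defining transcript in all 4 mice. Log2 fold changes are Lgr5-CREPTKO minus Lgr5-WT on the log2(FPKM + 0.5) scale, which understates the change of low genes, and adjusted p-values are from limma's moderated test over 12621 genes. An exact permutation test of 2 mice against 2 cannot go below p = 0.333, so each call rests on the spread that limma shares across genes.

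Most members were lower in Lgr5-CREPTKO cells by a small amount, and 1, Cenpm, passed the test. All 38 members had a mean above the filter of 0.5 FPKM. Their log2 fold change was negative in 35 of 38 (92.1%), against 52.3% of all genes tested, and its median was -0.17 against -0.01 over all genes. Both Lgr5-CREPTKO mice were below both Lgr5-WT mice for 21 members (55.3%, against 31.0% of all genes), both were above for 1 member, Cenpf (2.63%, against 25.6%), and the genotypes overlapped for 16. At an unadjusted p below 0.05, 11 members were lower (28.9%, against 15.2% of all genes) and 0 were higher (against 9.27%). Without Lgr5-WT mouse 1 this count of 11 was 3 (7.89%, against 11.2% of all genes), and without Lgr5-CREPTKO mouse 2 it was 7 (18.4%, against 12.6%). At an adjusted p below 0.05, 1 member was lower (2.63%, against 2.67% of all genes) and 0 were higher (against 0.412%). By the adjusted threshold the members were therefore called no more often than genes at large. The summed level of the members was 667 and 646 FPKM in Lgr5-WT and 582 and 555 FPKM in Lgr5-CREPTKO mice, 0.866 of the Lgr5-WT level. In bulk samples, fewer cells in division and less RNA of these genes per cell cannot be told apart.

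The direction of the smallest differences depended on scaling. Of the 35 members that were negative, 28 were also negative when libraries were rescaled to the same total, by median-of-ratios size factors and by quantile normalization. The 7 that turned positive under at least 1 of these scalings were Bub1b, Bub3, Cenpc1, Cenpn, Dsn1, Incenp and Ska3. The FPKM values of all genes summed to 495758 and 499327 in Lgr5-WT and 468830 and 473662 in Lgr5-CREPTKO mice. Rescaling to the same total moved the median of the members from -0.17 to -0.10 and that of all genes from -0.01 to 0.06. Under the same rescaling the log2 fold changes of Cenpl, Cenpp, Pmf1, Nsl1, Zwint and Aurka came to between -0.11 and -0.06. Leaving out Lgr5-CREPTKO mouse 2 left 25 members negative with a median of -0.08, and leaving out Lgr5-CREPTKO mouse 1 left 35 negative with a median of -0.28.

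**Figure D1:**
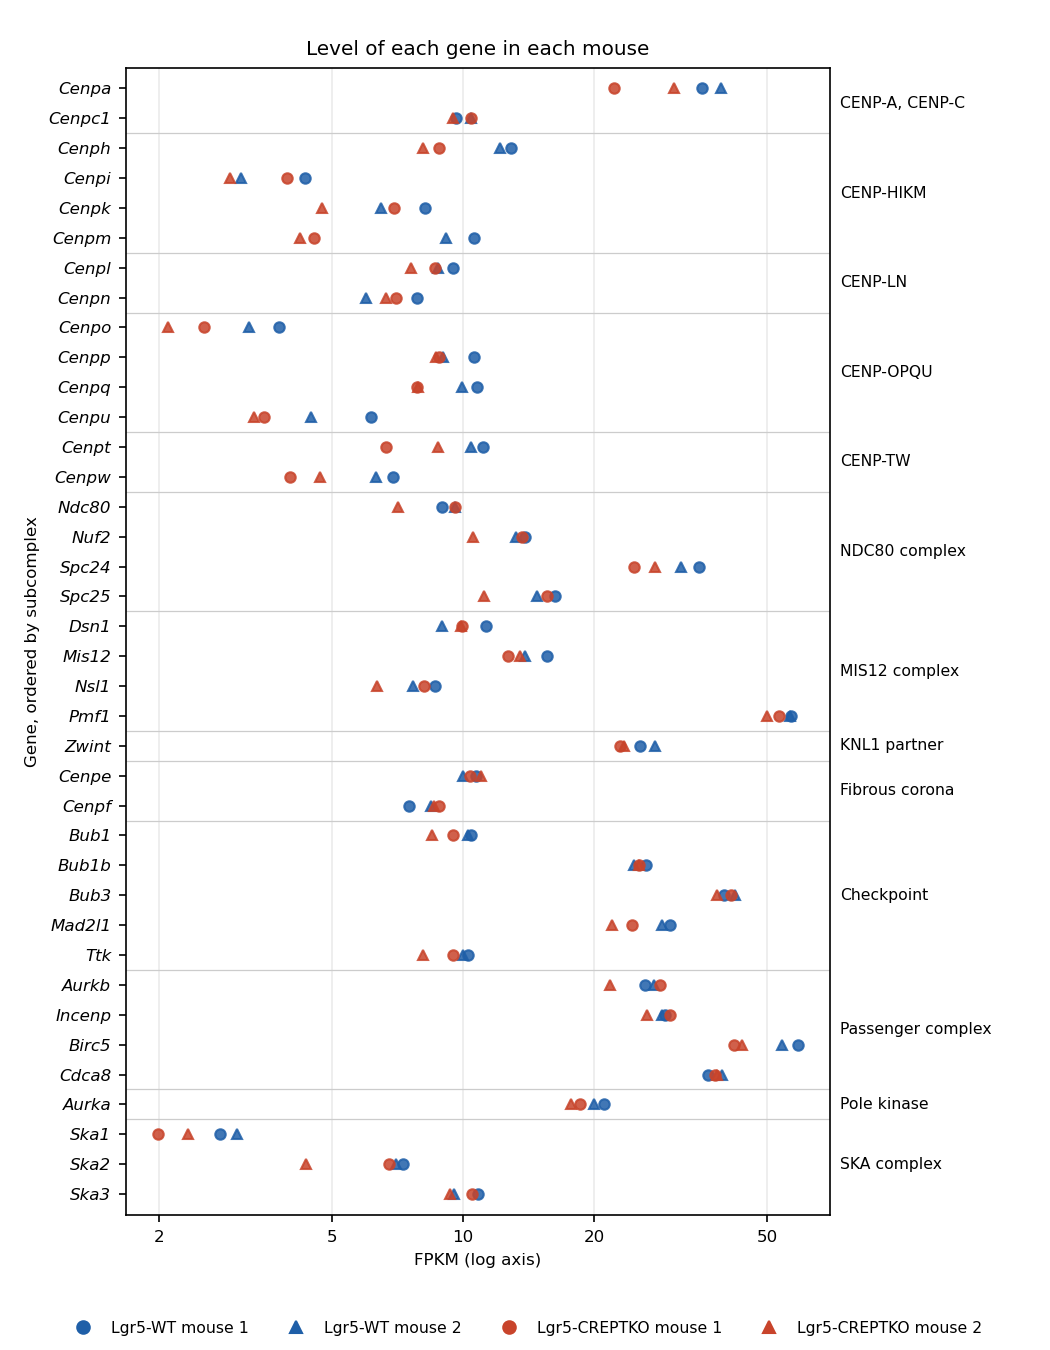
FPKM of the 38 genes in each mouse on a log axis, ordered by subcomplex, with blue for the 2 Lgr5-WT and red for the 2 Lgr5-CREPTKO mice (circles for mouse 1, triangles for mouse 2). Levels span 1.99 FPKM (Ska1) to 58.7 FPKM (Birc5), and the genotypes stand apart most widely at Cenpm.

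The centromeric nucleosome was represented by Cenpa, the histone variant itself, and Cenpc1, which encodes the CENP-C protein that binds it. Cenpa was 35.4 and 39.3 FPKM in Lgr5-WT cells and 22.3 and 30.5 FPKM in Lgr5-CREPTKO cells, with a log2 fold change of -0.51 (SE 0.164, adjusted p = 0.150). Both Lgr5-CREPTKO mice were below both Lgr5-WT mice, but the Lgr5-CREPTKO mice differed from each other by more than the gap between the genotypes. The log2 fold change was -0.28 without Lgr5-CREPTKO mouse 1 and -0.73 without Lgr5-CREPTKO mouse 2. Cenpc1 was 9.66 and 10.4 FPKM in Lgr5-WT cells and 10.4 and 9.49 FPKM in Lgr5-CREPTKO cells. Its genotypes overlapped, and its log2 fold change of -0.01 had a 95% interval of -0.27 to 0.25.

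The constitutive centromere network, counted here without its CENP-C gene (Cenpc1, above), included Cenpm, the member with the largest difference. All 12 of these genes had a negative log2 fold change, 9 had both Lgr5-CREPTKO mice below both Lgr5-WT mice (75%, against 31.0% of all genes), 7 had an unadjusted p below 0.05 (58.3%, against 15.2%), and 1 had an adjusted p below 0.05 (8.3%, against 2.67%). Their median log2 fold change was -0.43, and their summed level was 103 and 89.0 FPKM in Lgr5-WT cells and 73.1 and 69.6 FPKM in Lgr5-CREPTKO cells, 0.745 of the Lgr5-WT level. The median was -0.36, -0.39 and -0.39 under the 3 scalings, with 11 of 12 negative under each, since Cenpn turned positive. Leaving out 1 mouse at a time gave medians of -0.50 to -0.34, with at least 10 of 12 negative, while the 7 at an unadjusted p below 0.05 were 2 (16.7%, against 11.2% of all genes) without Lgr5-WT mouse 1 and 4 (33.3%) without Lgr5-CREPTKO mouse 1 (against 11.0%), without Lgr5-CREPTKO mouse 2 (against 12.6%) and with the length correction (against 10.1%). With Cenpc1 included, the median was -0.38, the counts of 9, 7 and 1 were 69.2%, 53.8% and 7.7%, and 11 of 13 were negative under each of the 3 scalings. Whether this network differed from the other subcomplexes was not tested.

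Within the network, the CENP-HIKM group links the CENP-C protein to the rest of the network. Cenpm was 10.6 and 9.13 FPKM in Lgr5-WT cells and 4.55 and 4.23 FPKM in Lgr5-CREPTKO cells, 0.445 of the Lgr5-WT mean, with a log2 fold change of -1.08 (SE 0.121, adjusted p = 0.0333). Each Lgr5-CREPTKO mouse was at or below 4.55 FPKM and each Lgr5-WT mouse at or above 9.13 FPKM, a gap wider than the distance between mice of a genotype. These levels stood for an estimated 190 and 166 reads in Lgr5-WT and 82.0 and 72.8 reads in Lgr5-CREPTKO libraries. The call was lost without the filter on low values (adjusted p = 0.123), without the intensity trend (adjusted p = 0.0657) and when any 1 mouse was left out (adjusted p from 0.175 to 0.305), over a range of 0.0291 to 0.305 for all alternatives, while the log2 fold change kept between -1.18 and -0.87.

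Cenph was 12.9 and 12.1 FPKM in Lgr5-WT cells and 8.81 and 8.07 FPKM in Lgr5-CREPTKO cells, with a log2 fold change of -0.54 (SE 0.0973, adjusted p = 0.0602). The genotypes did not overlap and each pair of mice lay close together, yet the adjusted p missed the threshold. Cenph and Cenpm are among the cell cycle genes that the study chose for display from these same libraries, so their direction is not independent evidence. The other pair of this group, Cenpi and Cenpk, had log2 fold changes of -0.10 and -0.32, and the genotypes overlapped for both. Cenpi turned positive without Lgr5-WT mouse 1 and without Lgr5-CREPTKO mouse 2. In both, mice of a genotype differed by more than the means of the genotypes did. Cenpi, for example, was 4.33 and 3.08 FPKM in Lgr5-WT and 3.93 and 2.92 FPKM in Lgr5-CREPTKO mice. Cenpk was lowest in Lgr5-CREPTKO mouse 2, with a log2 difference of -0.51 from Lgr5-CREPTKO mouse 1.

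CENP-LN proteins read the CENP-A nucleosome directly, and their genes had the median nearest to 0 in the network (-0.08, and 0.03 without Lgr5-WT mouse 1). Cenpl was 9.49 and 8.78 FPKM in Lgr5-WT and 8.60 and 7.61 FPKM in Lgr5-CREPTKO cells (log2 fold change -0.16, SE 0.109, adjusted p = 0.414). The genotypes of Cenpl stood apart by less than the distance between mice of a genotype, and its log2 fold change was -0.25 without Lgr5-CREPTKO mouse 1 and -0.08 without Lgr5-CREPTKO mouse 2. Cenpn had a log2 fold change of -0.0036, with a 95% interval of -0.39 to 0.39 and overlapping genotypes.

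For CENP-OPQU, which helps to fix microtubule attachments, both Lgr5-CREPTKO mice were below both Lgr5-WT mice for all 4 genes (100%, against 31.0% of all genes). At an unadjusted p below 0.05, 3 were lower (75%, against 15.2%). With either length correction 1 was lower (25%, against 10.1% and 10.3% of all genes). The count also fell without Lgr5-WT mouse 1, Lgr5-CREPTKO mouse 1 or Lgr5-CREPTKO mouse 2. Cenpu was 6.14 and 4.47 FPKM in Lgr5-WT and 3.48 and 3.31 FPKM in Lgr5-CREPTKO cells, with a log2 fold change of -0.56 (SE 0.175, adjusted p = 0.142), which was -0.35 without Lgr5-WT mouse 1. Cenpo and Cenpq had log2 fold changes of -0.51 (adjusted p = 0.148) and -0.38 (adjusted p = 0.0993). Cenpp was 10.6 and 8.99 FPKM in Lgr5-WT and 8.79 and 8.67 FPKM in Lgr5-CREPTKO cells, a smaller difference (log2 fold change -0.15, SE 0.114, adjusted p = 0.459). In Cenpp the lower Lgr5-WT mouse lay nearer to the Lgr5-CREPTKO mice than to the other Lgr5-WT mouse, and the log2 fold change was -0.04 without Lgr5-WT mouse 1 and -0.27 without Lgr5-WT mouse 2. Exons of genes on the opposite strand cover 26.7% of the exon bases of Cenpu (Primpol), 19.0% of Cenpo (Adcy3) and 12.3% of Cenpp (Ippk). Strand was not given in the sources used here, so reads of these pairs could not be told apart there.

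CENP-T and CENP-W are histone fold proteins that form a second route from centromeric DNA to the NDC80 complex. Cenpt was 11.1 and 10.5 FPKM in Lgr5-WT and 6.64 and 8.75 FPKM in Lgr5-CREPTKO cells (log2 fold change -0.47, SE 0.150, adjusted p = 0.146). Cenpw was 6.91 and 6.31 FPKM in Lgr5-WT and 4.0 and 4.69 FPKM in Lgr5-CREPTKO cells (log2 fold change -0.56, SE 0.129, adjusted p = 0.0881). Both genes were lowest in Lgr5-CREPTKO mouse 1, without which the log2 fold change of Cenpt was -0.29, and the genotypes overlapped in neither.

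**Figure D2:**
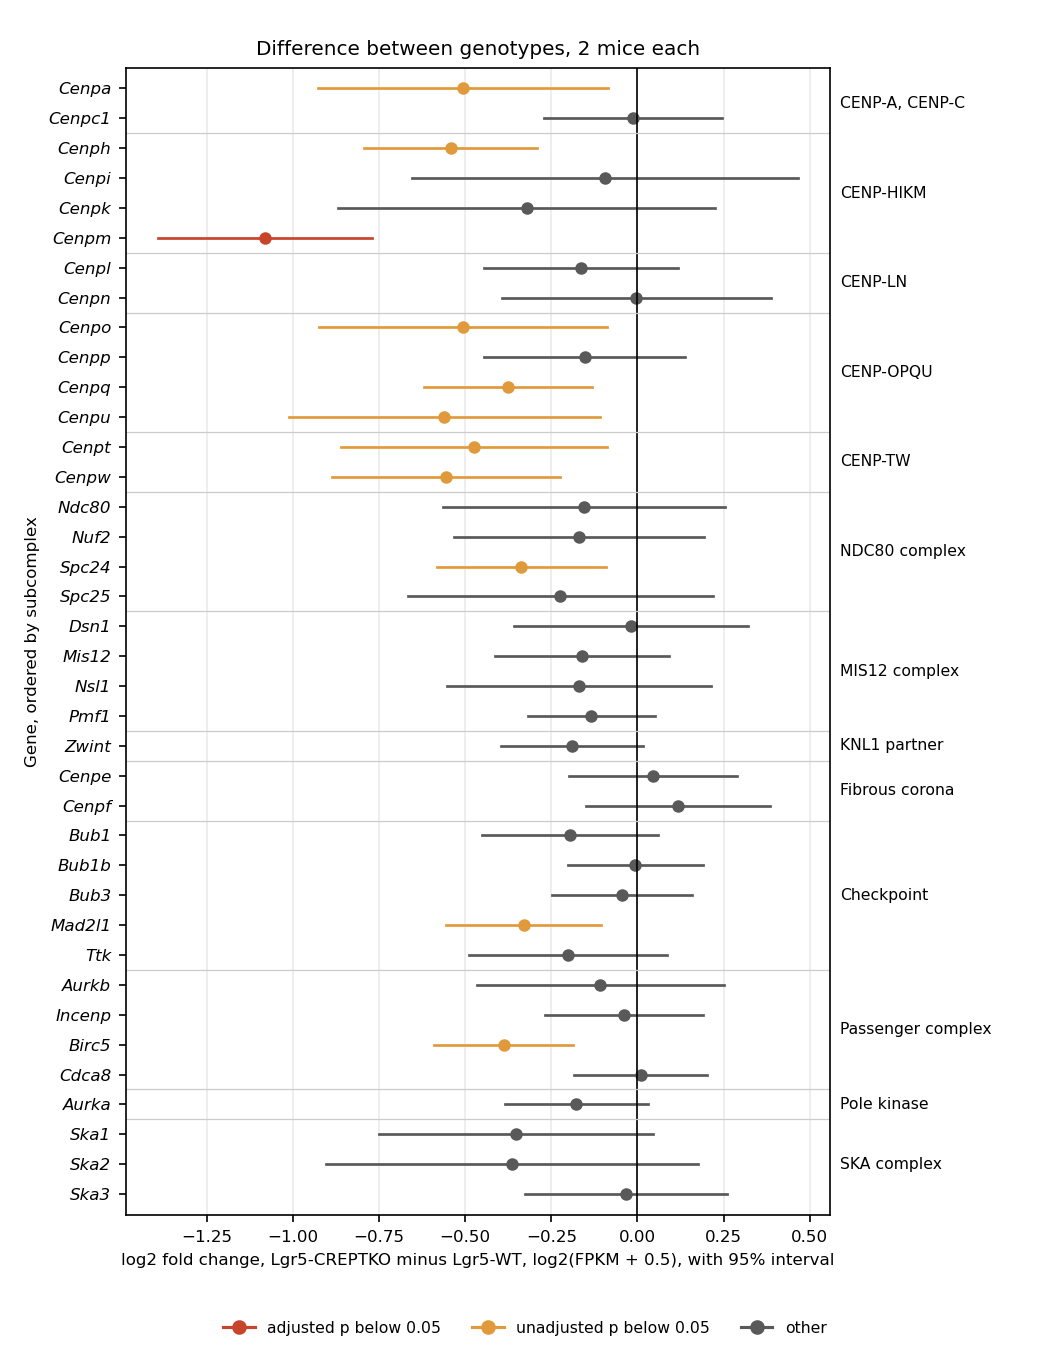
Log2 fold change of each gene (points) with its 95% interval (lines), Lgr5-CREPTKO minus Lgr5-WT with 2 mice each, ordered by subcomplex and coloured by p-value. The interval of Cenpm runs from -1.39 to -0.77, and the intervals of Cenpe and Cenpf include 0. At an unadjusted p below 0.05, 11 of the 38 genes are lower (28.9%, against 15.2% of all genes). They include 7 of the 12 genes of CENP-HIKM, CENP-LN, CENP-OPQU and CENP-TW (58.3%), a count that fell with mice left out.

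In the outer kinetochore, all 9 genes of the NDC80 and MIS12 complexes and the KNL1 partner Zwint had negative log2 fold changes in the deposited scaling, with a median of -0.17, and Dsn1 turned positive under the other 3 scalings. The median was -0.26 without Lgr5-CREPTKO mouse 1 and -0.01, with 6 of 9 negative, without Lgr5-CREPTKO mouse 2, where that of all genes was -0.03. Both Lgr5-CREPTKO mice were below both Lgr5-WT mice for 4 of the 9 (44.4%, against 31.0% of all genes), and 1 had an unadjusted p below 0.05 (11.1%, against 15.2%). This count was 0 with either length correction (against 10.1% and 10.3% of all genes). It also fell without Lgr5-WT mouse 1 and rose without Lgr5-CREPTKO mouse 1. The gene with an unadjusted p below 0.05 was Spc24, a subunit at the inner end of the NDC80 rod. It was at 34.8 and 31.6 FPKM in Lgr5-WT and 24.8 and 27.7 FPKM in Lgr5-CREPTKO cells (log2 fold change -0.34, SE 0.0953, adjusted p = 0.122). For the other genes of the complex, Ndc80, Nuf2 and Spc25, log2 fold changes were between -0.22 and -0.16 and the genotypes overlapped. In each of them the lowest value was that of Lgr5-CREPTKO mouse 2, and all 3 turned positive when that mouse was left out.

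In the MIS12 complex, which ties the NDC80 complex to the centromere, Pmf1 was the most abundant gene, with 56.9 and 56.6 FPKM in Lgr5-WT and 53.4 and 50 FPKM in Lgr5-CREPTKO cells (log2 fold change -0.13, SE 0.0713, adjusted p = 0.320). Nsl1 was 8.63 and 7.69 FPKM in Lgr5-WT and 8.13 and 6.35 FPKM in Lgr5-CREPTKO cells (log2 fold change -0.17, SE 0.149, adjusted p = 0.534). Without Lgr5-CREPTKO mouse 2 the log2 fold changes of Pmf1 and Nsl1 were -0.09 and -0.0029, and that of Nsl1 was -0.34 without Lgr5-CREPTKO mouse 1 and -0.09 without Lgr5-WT mouse 1. Genotypes did not overlap for Pmf1 and Mis12 and overlapped for Nsl1 and Dsn1. Zwint, whose protein binds KNL1 and helps to recruit the motor complex of the corona, was 25.5 and 27.6 FPKM in Lgr5-WT and 22.9 and 23.5 FPKM in Lgr5-CREPTKO cells (log2 fold change -0.19, SE 0.0803, adjusted p = 0.232). Its genotypes stood apart by about as much as the Lgr5-WT mice differed from each other.

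The fibrous corona, the outermost layer that captures microtubules, was the only subcomplex of the 13 with a summed level higher in both Lgr5-CREPTKO mice, at 1.06 of the Lgr5-WT level. Cenpe, a plus-end motor, was 10.7 and 9.98 FPKM in Lgr5-WT and 10.4 and 11.0 FPKM in Lgr5-CREPTKO cells (log2 fold change 0.04, SE 0.0945, adjusted p = 0.817), and its log2 fold change without Lgr5-WT mouse 2 was -0.0051. Cenpf was 7.52 and 8.43 FPKM in Lgr5-WT and 8.79 and 8.58 FPKM in Lgr5-CREPTKO cells (log2 fold change 0.12, SE 0.104, adjusted p = 0.533). Cenpe overlapped between genotypes, and for Cenpf the gap between them was smaller than the distance between the Lgr5-WT mice, with a log2 fold change of 0.04 without Lgr5-WT mouse 1 and 0.20 without Lgr5-WT mouse 2. These are the longest transcripts of the group, and both log2 fold changes were negative after the corrections for transcript length described further on.

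The log2 fold changes of the 5 spindle checkpoint genes ran from -0.33 to -0.01, and 3 of the 5 were negative under rescaling to the same total. Mad2l1, which encodes the MAD2 protein that holds back the anaphase activator, was 29.9 and 28.6 FPKM in Lgr5-WT and 24.4 and 22.0 FPKM in Lgr5-CREPTKO cells (log2 fold change -0.33, SE 0.0875, adjusted p = 0.109). Bub1 and Ttk, the kinases of the checkpoint, had log2 fold changes of -0.20 each and adjusted p-values of 0.299 and 0.337. In each, both Lgr5-CREPTKO mice were below both Lgr5-WT mice, with the lowest value in Lgr5-CREPTKO mouse 2. Without that mouse the median of the 5 genes moved from -0.20 to -0.09, and without Lgr5-CREPTKO mouse 1 it was -0.27. Bub3 was 39.9 and 42.3 FPKM in Lgr5-WT and 41.2 and 38.4 FPKM in Lgr5-CREPTKO cells (log2 fold change -0.04, SE 0.0788, adjusted p = 0.776). The genotypes overlapped for Bub3 and Bub1b, which encode subunits of the inhibitor of the anaphase-promoting complex, and both turned positive under rescaling to the same total, as did Bub1b without Lgr5-WT mouse 1 and Bub3 without Lgr5-CREPTKO mouse 2.

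Among the chromosomal passenger genes, whose proteins correct wrong attachments, the 4 subunits did not move together, with a median of -0.07 that became 0.0035 under rescaling to the same total. It was -0.09, with 4 of 4 negative, without Lgr5-WT mouse 1, -0.21 without Lgr5-CREPTKO mouse 1, 0.03, with 1 of 4 negative, without Lgr5-CREPTKO mouse 2, and 0.0022 and -0.0040 with the length correction and the length and GC correction. Birc5 (survivin), the most abundant of the 4, was at 58.7 and 54.0 FPKM in Lgr5-WT and 41.9 and 43.9 FPKM in Lgr5-CREPTKO cells (log2 fold change -0.39, SE 0.0784, adjusted p = 0.0701). Both Lgr5-CREPTKO mice were below both Lgr5-WT mice, by more than the distance between mice of a genotype. Cdca8 (borealin), which binds survivin in the same complex, was 36.6 and 39.4 FPKM in Lgr5-WT and 38.0 and 38.4 FPKM in Lgr5-CREPTKO cells, with a log2 fold change of 0.01 and a 95% interval of -0.18 to 0.20. The kinase Aurkb and the scaffold Incenp had log2 fold changes of -0.11 and -0.04, and both turned positive without Lgr5-CREPTKO mouse 2, Incenp also under rescaling to the same total and Aurkb also with either length correction. For these 3 genes the genotypes overlapped. Aurka, the kinase of the spindle poles, was 21.1 and 20.01 FPKM in Lgr5-WT and 18.5 and 17.7 FPKM in Lgr5-CREPTKO cells (log2 fold change -0.18, SE 0.0808, adjusted p = 0.255), without overlap.

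The SKA complex, which keeps kinetochores on shrinking microtubules, held the member with the lowest level, Ska1, with a log2 fold change of -0.35 and an adjusted p of 0.245. Ska2 was 7.28 and 7.01 FPKM in Lgr5-WT and 6.77 and 4.35 FPKM in Lgr5-CREPTKO cells (log2 fold change -0.36, SE 0.210, adjusted p = 0.355). Without Lgr5-CREPTKO mouse 2 its log2 fold change was -0.07, and without Lgr5-CREPTKO mouse 1 it was -0.66. Ska3 was 10.8 and 9.52 FPKM in Lgr5-WT and 10.5 and 9.34 FPKM in Lgr5-CREPTKO cells (log2 fold change -0.03, SE 0.114, adjusted p = 0.887), with overlapping genotypes, and turned positive without Lgr5-WT mouse 1 or Lgr5-CREPTKO mouse 2.

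**Figure D3:**
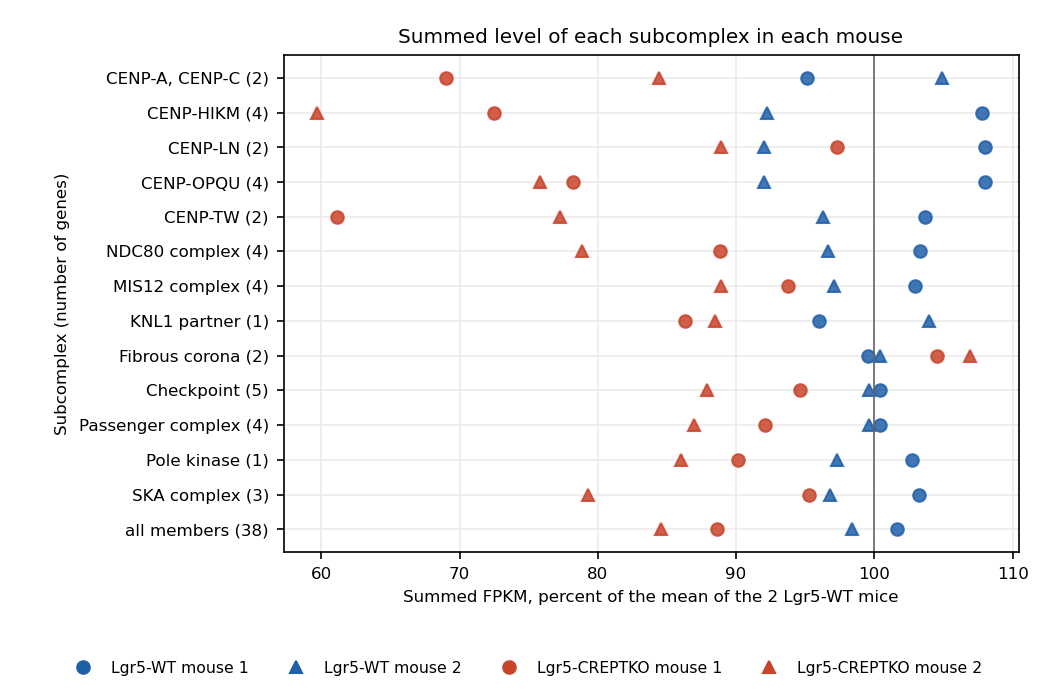
Summed FPKM of each subcomplex in each mouse, as a percent of the mean of the 2 Lgr5-WT mice (number of genes in brackets). The Lgr5-CREPTKO mice stand at 72.5% and 59.7% for CENP-HIKM, 61.2% and 77.2% for CENP-TW and 78.2% and 75.8% for CENP-OPQU, and at 105% and 107% for the fibrous corona, where the log2 fold changes turn negative after a correction for transcript length.

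Mice of 1 genotype also differed across the members. Of the 38 genes, 29 were lower in Lgr5-WT mouse 2 than in Lgr5-WT mouse 1, with a median log2 difference of -0.09, and 27 were lower in Lgr5-CREPTKO mouse 2 than in Lgr5-CREPTKO mouse 1, also with a median of -0.09. Over all genes tested these medians were 0.00 and 0.02. Most members, but not all, thus differed in the same direction between mice of the same genotype. The medians were about the size of the smaller differences between genotypes. The largest single differences were 0.43 for Cenpi between the Lgr5-WT mice and 0.58 for Ska2 between the Lgr5-CREPTKO mice.

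Differences between genotypes went with transcript length. Across the 38 members, Spearman's rho between log2 fold change and transcript length was 0.367, and across 12501 genes with a length it was 0.364. These are correlations across genes that share the same 4 libraries and are not independent replicates. Between mice of the same genotype rho over all genes was -0.109 and -0.126. By length class, the all-gene median was -0.21 up to 1000 bases, -0.10 from 1000 to 2000, -0.02 from 2000 to 3000, 0.03 from 3000 to 4000 and 0.12 above 4000 bases. The members lay below these values in every class, with medians of -0.51 (3 genes), -0.21 (14), -0.17 (13), -0.10 (5) and 0.04 (3).

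When the length trend was taken out of each library, a step chosen after seeing the data, 30 of 38 members were negative, with a median of -0.10 against 0.03 over all genes. With length and GC content both taken out, 29 were negative, with a median of -0.06 against 0.04. The constitutive centromere network had medians of -0.30 and -0.28 after these corrections, with 10 of 12 negative. The NDC80, MIS12 and Zwint genes had medians of -0.06 and -0.03. Cenpm had log2 fold changes of -0.87 (adjusted p = 0.0639) and -0.89 (adjusted p = 0.0662), so no member passed the threshold of limma's test, while 6 and 7 members (15.8% and 18.4%) were lower at an unadjusted p below 0.05, against 10.1% and 10.3% of all genes. Several other log2 fold changes given above came closer to 0 with these corrections (length first, length and GC second). They were -0.29 and -0.29 for Cenpa, -0.36 and -0.33 for Cenph, and -0.05 and -0.03 for Cenpl. For Spc24 they were -0.16 and -0.17, for Zwint -0.06 and -0.05, and for Aurka -0.06 and -0.06. Others moved away from 0, at -0.40 and -0.35 for Mad2l1, -1.35 and -1.36 for Rprd1b, and 0.45 and 0.45 for Lgr5. What gave rise to the length trend was not tested.

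**Figure D4:**
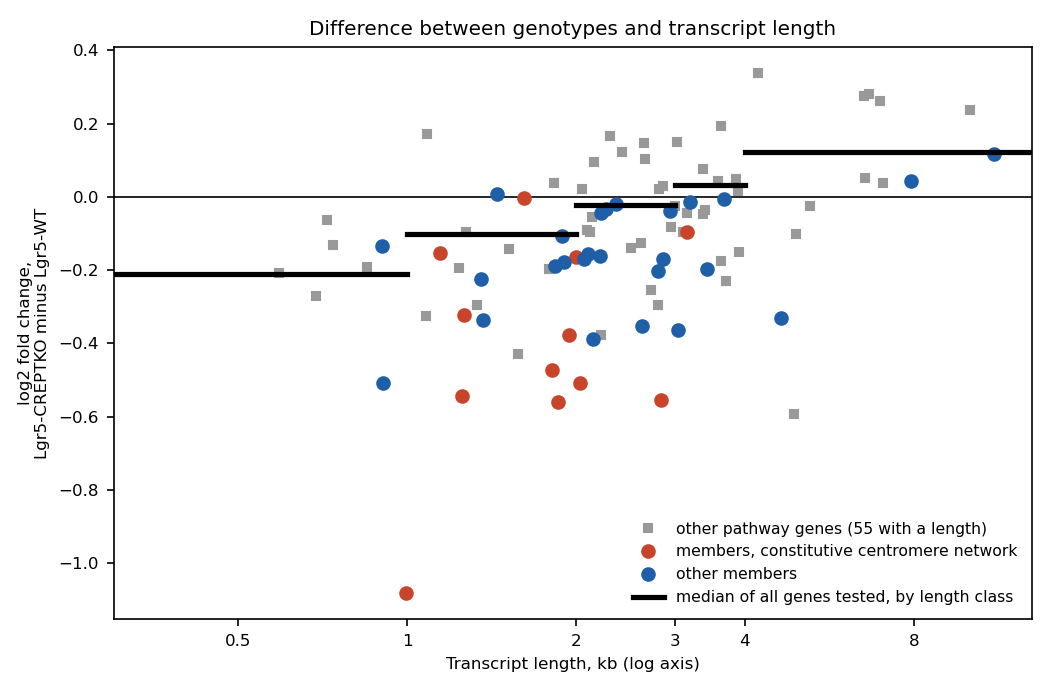
Log2 fold change, Lgr5-CREPTKO minus Lgr5-WT, against transcript length on a log axis for the members (red for the constitutive centromere network, blue for the others), for 55 other genes of the pathway (grey squares) and as medians of all genes in 5 length classes (black lines). The black lines climb from -0.21 to 0.12, and most members lie below them.

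Genes of the same pathway outside the 38 were described in the same way. Of 27 other centromere, kinetochore and checkpoint genes, 17 had a negative and 10 a positive log2 fold change, with a median of -0.10 that was -0.02 under rescaling to the same total. The median was -0.04 without Lgr5-WT mouse 1, -0.16 without Lgr5-WT mouse 2 and -0.01 without Lgr5-CREPTKO mouse 2. Of these genes 5 were lower (18.5%, against 15.2% of all genes) and 0 were higher (against 9.27%) at an unadjusted p below 0.05, counts that depended on the setting. There was 1 lower gene under rescaling to the same total (3.7%, against 11.2%) and with either length correction (3.85%, against 10.1% and 10.3%), and 0, 2 and 1 without Lgr5-WT mouse 1, Lgr5-CREPTKO mouse 1 and Lgr5-CREPTKO mouse 2 (against 11.2%, 11.0% and 12.6%). None of the 27 passed the adjusted threshold of limma's test. Cenpb, which encodes a protein that binds centromeric DNA, was 64.1 and 55.9 FPKM in Lgr5-WT and 34.8 and 44.8 FPKM in Lgr5-CREPTKO cells (log2 fold change -0.59, SE 0.146, adjusted p = 0.0956). Hjurp, the chaperone that loads CENP-A, was 22.4 and 18.4 FPKM in Lgr5-WT and 15.2 and 15.9 FPKM in Lgr5-CREPTKO cells (log2 fold change -0.38, SE 0.118, adjusted p = 0.142). Stra13, the table's symbol for Cenpx, another histone fold gene, was 60.6 and 56.7 FPKM in Lgr5-WT and 49.4 and 39.3 FPKM in Lgr5-CREPTKO cells (log2 fold change -0.41, SE 0.126, adjusted p = 0.140). For all 3 genes both Lgr5-CREPTKO mice were below both Lgr5-WT mice. The log2 fold change of Hjurp was -0.24 without Lgr5-WT mouse 1, and that of Stra13 was -0.24 without Lgr5-CREPTKO mouse 2.

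Of 20 genes of the anaphase-promoting complex, its activators and separase, which the checkpoint restrains, 14 had a negative and 6 a positive log2 fold change (median -0.07), a split that became 10 and 10 under rescaling to the same total and 7 and 13 with either length correction, and 11 and 9 without Lgr5-CREPTKO mouse 2. At an unadjusted p below 0.05, 3 were lower (15%, against 15.2% of all genes) and 1 was higher (5%, against 9.27%). These counts became 1 lower and 4 higher under rescaling to the same total (5% and 20%, against 11.2% and 15.5%). They were 1 and 3 with the length correction (against 10.1% and 10.8%) and 1 and 2 with the length and GC correction (against 10.3% and 10.2%). Under median-of-ratios size factors (against 13.2% and 11.4%) and quantile normalization (against 12.2% and 12.4%) they were 1 and 1. They also moved with any 1 mouse left out. None passed limma's adjusted threshold. The ubiquitin-conjugating enzyme Ube2c was 99.3 and 118 FPKM in Lgr5-WT and 77.0 and 83.8 FPKM in Lgr5-CREPTKO cells (log2 fold change -0.43, SE 0.108, adjusted p = 0.0996). Anapc1, the scaffold subunit, was 23.0 and 21.3 FPKM in Lgr5-WT and 28.3 and 27.9 FPKM in Lgr5-CREPTKO cells (log2 fold change 0.34, SE 0.0790, adjusted p = 0.0887). Espl1 (separase) was 7.93 and 6.44 FPKM in Lgr5-WT and 8.65 and 8.94 FPKM in Lgr5-CREPTKO cells (log2 fold change 0.28, SE 0.129, adjusted p = 0.258). The genotypes overlapped in none of the 3, and their differences went in opposite directions. The log2 fold change of Espl1 was 0.14 without Lgr5-WT mouse 2. With the length correction and the length and GC correction it was 0.14 and 0.12, and that of Ube2c was -0.28 and -0.28.

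The direction of general markers of cycling cells depended on 1 mouse. Of 9 such genes, 2 had a negative and 7 a positive log2 fold change (median 0.09), which became 1 and 8 under each of the other scalings, as Top2a turned positive, but 6 and 3 (median -0.04) without Lgr5-WT mouse 2. In the deposited scaling 0 passed limma's test at an unadjusted or an adjusted p below 0.05. At an unadjusted p below 0.05, 2 were higher under rescaling to the same total (22.2%, against 15.5% of all genes) and without Lgr5-WT mouse 1 (against 7.26%), 1 was higher under quantile normalization (11.1%, against 12.4%), and 1 was lower without Lgr5-CREPTKO mouse 1 (against 11.0%). Mki67 was 55.9 and 48.9 FPKM in Lgr5-WT and 66.1 and 57.7 FPKM in Lgr5-CREPTKO cells (log2 fold change 0.24, SE 0.108, adjusted p = 0.256). Mcm6 and Mcm3, of the helicase that opens replication origins, had log2 fold changes of 0.19 (SE 0.1001, adjusted p = 0.304) and 0.15 (SE 0.117, adjusted p = 0.478). Mcm6 was 125 and 108 FPKM in Lgr5-WT and 139 and 128 FPKM in Lgr5-CREPTKO cells, and Mcm3 was 59.1 and 48.9 FPKM against 62.9 and 56.8 FPKM. Top2a was 79.5 and 77.8 FPKM in Lgr5-WT and 91.5 and 65.4 FPKM in Lgr5-CREPTKO cells (log2 fold change -0.02, SE 0.166, adjusted p = 0.949). Log2 fold changes without Lgr5-WT mouse 2 were 0.14 for Mki67, 0.09 for Mcm6 and 0.015 for Mcm3, without Lgr5-WT mouse 1 they were 0.30 for Mcm6 and 0.29 for Mcm3, without Lgr5-CREPTKO mouse 1 they were 0.14 for Mki67, 0.08 for Mcm3 and -0.26 for Top2a, and without Lgr5-CREPTKO mouse 2 that of Top2a was 0.22. The genotypes of Top2a and Mcm3 overlapped, and those of Mki67 and Mcm6 did not. Mki67 transcripts, like those of Cenpe and Cenpf, are long, and its log2 fold change was 0.016 with the length correction and 0.0098 with the length and GC correction.

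Markers of other cell types moved between the same genotypes. Of 10 enteroendocrine markers, 10 were negative and 5 passed the adjusted threshold of limma's test (50%, against 2.67% of all genes), and their summed level was 235 and 337 FPKM in Lgr5-WT and 74.1 and 79.8 FPKM in Lgr5-CREPTKO cells. The most abundant of them over the 4 mice was Chgb (in Lgr5-WT alone it was Gip, at 39.0 and 111 FPKM), at 64.7 and 59.3 FPKM in Lgr5-WT and 22.9 and 32.0 FPKM in Lgr5-CREPTKO cells (log2 fold change -1.18, SE 0.168, adjusted p = 0.0423). All 7 goblet markers were negative, with 1 (Spink4) past the adjusted threshold (14.3%), and summed to 1465 and 2441 FPKM against 802 and 936 FPKM. Their most abundant gene was Tff3 (log2 fold change -1.18, adjusted p = 0.0823). All 7 tuft markers were negative with 0 past the adjusted threshold and 5 at an unadjusted p below 0.05 (71.4%, against 15.2%), and summed to 24.4 and 52.5 FPKM against 19.4 and 7.45 FPKM, led by Avil (log2 fold change -1.37, adjusted p = 0.183). The 5 enteroendocrine calls and the 1 goblet call became 2 and 0 with either length correction and 0 and 0 without the filter or the intensity trend. Log2 fold changes without Lgr5-WT mouse 2 were -0.78 for Tff3 and -0.88 for Avil, and without Lgr5-CREPTKO mouse 2 that of Avil was -0.78. With any 1 mouse left out, these 3 lists stayed negative in all their genes and 0 passed the adjusted threshold, while tuft markers at an unadjusted p below 0.05 numbered 0 without Lgr5-WT mouse 2 or without Lgr5-CREPTKO mouse 2.

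All 7 markers of Lgr5 stem cells were positive, also under the other scalings and length corrections except for Olfm4, which was at 0 under quantile normalization, with a median log2 fold change of 0.32, and 0 passed limma's adjusted threshold while 5 had an unadjusted p below 0.05 (71.4%, against 9.27% of all genes, and 2 genes without Lgr5-WT mouse 2 or without Lgr5-CREPTKO mouse 2). They summed to 5936 and 5715 FPKM in Lgr5-WT and 6433 and 6213 FPKM in Lgr5-CREPTKO cells, most of it Olfm4 (log2 fold change 0.07, adjusted p = 0.685). That of Olfm4 was 0.15 under rescaling to the same total, 0.16 with the length correction and 0.18 with the length and GC correction. Lgr5 itself had a log2 fold change of 0.40 (adjusted p = 0.176), or 0.23 without Lgr5-WT mouse 2. Paneth markers (1 of 6 negative, led by Defa24, sums of 1394 and 1005 FPKM against 830 and 2445 FPKM) and enterocyte markers (3 of 7 negative, led by Fabp2, sums of 278 and 380 FPKM against 228 and 434 FPKM) overlapped between genotypes, and both were highest in Lgr5-CREPTKO mouse 2, without which 5 of 6 and 7 of 7 were negative. Of 6 immune markers, 4 passed the filter, and 2 of these were negative. Led by Cd68, the immune markers summed to 8.85 and 9.84 FPKM against 5.14 and 11.98 FPKM, and 5 markers of stroma and vessels, none past the filter, summed to at most 0.37 FPKM in any mouse. No marker was at 0 in all 4 mice. The part of these cell types in the differences of the kinetochore genes was not tested.

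Short motifs that are known from cell cycle genes were counted in the promoters of the members. RefSeq promoters on GRCm38.p6, from 250 bases before to 50 bases after the start site, were found for 33 of the 38 members, 36 promoters in all. TTTGAA or TTTAAA on either strand, the letters of the cell cycle homology region, occurred in 20 of the 36 (55.6%), against 27.6% of 32851 promoters. CCAAT on either strand occurred in 27 (75.0%), against 37.4%, and both together in 16 (44.4%), against 10.7%. The E2F-type letters TTTCCCGC, TTTGGCGC or TTTCGCGC on either strand occurred in 3 (8.33%), against 1.84%. In Cdca8 and Cenpw a CCAAT match and a TTTGAA match share 1 base. The 19 members with TTTGAA or TTTAAA had a median log2 fold change of -0.16 and the 14 without had one of -0.33, and with and without CCAAT the medians were -0.18 (24 genes) and -0.17 (9 genes). A match is a description of the letters and not of a factor's binding.

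The promoters of Cenpm, of Cenpa and of Cenpf, the member with the highest log2 fold change, show how these motifs stand in a member that passed the test, in the histone at the base of the kinetochore and in a member that was not lower. Each is given for the 250 bases before the start site, 5' to 3' on the gene's strand, with motif matches in capitals (CCAAT, or ATTGG where the match is on the other strand, TTTAAA and TTTCCCGC). Cenpm is shown at chr15:82244337-82244586 on the minus strand, Cenpa at chr5:30666636-30666885 on the plus strand and Cenpf at chr1:189688087-189688336 on the minus strand. The start site of Cenpm in the promoter table lies 437 bases inside the span RefSeq gives the gene.
Cenpm: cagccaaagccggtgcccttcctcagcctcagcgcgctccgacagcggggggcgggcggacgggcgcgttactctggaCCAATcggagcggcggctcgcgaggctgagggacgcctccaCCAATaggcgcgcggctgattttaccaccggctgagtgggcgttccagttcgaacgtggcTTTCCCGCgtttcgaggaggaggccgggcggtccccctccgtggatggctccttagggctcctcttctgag
Cenpa: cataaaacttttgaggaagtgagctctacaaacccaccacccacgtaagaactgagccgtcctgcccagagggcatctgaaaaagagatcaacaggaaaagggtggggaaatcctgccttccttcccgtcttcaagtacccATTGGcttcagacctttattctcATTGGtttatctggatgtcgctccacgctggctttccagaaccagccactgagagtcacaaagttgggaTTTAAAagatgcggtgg
Cenpf: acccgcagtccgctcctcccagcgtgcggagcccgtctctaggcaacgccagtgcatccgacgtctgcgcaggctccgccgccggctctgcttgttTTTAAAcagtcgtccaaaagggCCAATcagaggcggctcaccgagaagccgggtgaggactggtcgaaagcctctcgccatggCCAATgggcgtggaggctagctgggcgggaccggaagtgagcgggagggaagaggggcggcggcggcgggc
The Cenpm stretch holds CCAAT at -172 and -131 and TTTCCCGC at -71, counted from the start site at 0, and no TTTGAA or TTTAAA. The Cenpa stretch holds ATTGG at -109 and -86 and TTTAAA at -17. The Cenpf stretch holds TTTAAA at -154 and CCAAT at -132 and -71. Past the start site, and so not shown, the counted region also holds TTTGAA at 16 in Cenpa and at 2 in Cenpf. Cenpm and Cenpf thus both carry a pair of CCAAT matches, with log2 fold changes of -1.08 and 0.12.

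The members lie on 19 chromosomes. Cenpm spans chr15:82233762-82244773, Cenph chr13:100759674-100775903, Birc5 chr11:117849237-117855743 and Cenpa chr5:30666877-30674837. Rprd1b is on chromosome 2 (chr2:158028475-158078207), as are 5 members, Aurka, Bub1, Bub1b, Dsn1 and Spc25. Their log2 fold changes were -0.18, -0.20, -0.01, -0.02 and -0.22, and that of Rprd1b was -1.29. Whether their place on this chromosome plays a part was not tested. Words of 50 bases shared with another gene made up at most 5.04% of the annotated sequence of a member (Cenpw) and 0% of Cenpm.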

How the data were processed

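RNA of sorted Lgr5-GFP high cells was sequenced on a BGISEQ-500 from 2 mice per genotype. The authors deposited 1 table of FPKM values, with a row per gene symbol and a column per mouse. By the RNA-seq section of the study's methods, written for crypt and intestine RNA, Bowtie2 placed the reads on the transcripts of GRCm38.p6 and RSEM turned them into gene levels. The submitters' processing notes also name HISAT and mm10, and the versions are not given in the sources used here. The table holds no counts, so the count model of the study was replaced by limma 3.58.1 in R 4.3.3 (lmFit, eBayes with an intensity trend, two-sided) on log2(FPKM + 0.5), for the 12621 of 18436 genes whose 4-mouse mean reached 0.5 FPKM, with Benjamini-Hochberg adjustment and an adjusted p threshold of 0.05. The procedure was tested on simulated data.

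The members, gene lists and tests were chosen with earlier results of these data known. Given in full were members past the threshold, the most abundant member and that with the largest absolute log2 fold change of each subcomplex, Cenph and Cenpm, and the 3 genes with the largest absolute log2 fold change of each other pathway list. Named as context were Rprd1b, Lgr5, Olfm4, Mki67, Top2a and the most abundant gene of each marker list. Any other gene named with a value was picked with its value known. The lists themselves were not tested.

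Same-numbered mice are different animals. Depth was estimated from 133 to 158 values of small RNA genes per library. The number of reads, searched between 10000000 and 30000000, and a length offset were chosen together. The pair taken had the highest mean cosine of the values in reads, which is largest at whole reads. The offset came to 36.4 to 36.6 bases, and 89.5% to 91.8% of values lay within 0.1 read. Reads of the members were estimated from this depth, the offset and the transcript length given next. Transcript length (the median over GENCODE M21 basic transcripts) and GC content were found for 18162 of 18436 symbols. Exon overlap was found for the members alone. Coordinates and promoters are from RefSeq on GRCm38.p6, read with Python 3.11.15 and pandas 2.3.3. The pseudocount, filter, scaling, intensity trend, replicate block, threshold and mice left out in turn were varied, and corrections for transcript length and GC content (natural splines with 4 degrees of freedom) were added after seeing the data.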

Additional observations from a re-analysis of the deposited data

How the results depend on the processing

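With 2 mice a genotype and a replicate spread estimated across genes, counts of calls moved with most settings. Lower and higher calls over all genes (337 and 52) became 0 and 0 without the filter, 4 and 0 without the intensity trend, 168 and 15 with the replicate block, 53 and 5 with the length correction, 84 and 7 with the length and GC correction, 128 and 16 with an absolute log2 fold change above 1 added, 952 and 410 at an adjusted p below 0.10, and 0 to 0 in both directions with 1 mouse left out, where the lone mouse of its genotype is assumed to vary like the others. Rescaling to the same total gave 85 higher calls. Same-numbered mice deviated with a correlation of -0.03 over all genes and 0.20 over the members. The mice are different animals and were not taken as pairs, and the replicate block left the call of Cenpm (adjusted p = 0.0412) and ended that of Chgb (adjusted p = 0.0514), with 3 goblet calls for 1 and 4 enteroendocrine calls for 5. Members lower (1) became 0 without the filter, without the trend and with either correction, 0 to 0 with 1 mouse left out, and 5 at an adjusted p below 0.10. The median of the members became -0.060 with the length and GC correction. With the length correction and the length and GC correction, in that order, signs turned for Cenpp (0.041, 0.070), Pmf1 (0.081, 0.060), Cenpe (-0.132, -0.111), Cenpf (-0.122, -0.107), Bub3 (0.045, 0.046) and Ska3 (0.0525, 0.068), and with the latter alone for Fabp2 (0.033). Members given without full statistics also turned, among them Aurkb, Cenpn and Dsn1 with both corrections and Cenpc1 with the latter. Rescaling to the same total turned Bub3 (0.033), Ska3 (0.042) and Top2a (0.054), quantile normalization Bub3 (0.0032) and Top2a (0.043), with Olfm4 at 0, and median-of-ratios size factors Top2a (0.0095). With 1 mouse left out, log2 fold changes ran from -0.0051 to 0.095 for Cenpe, -0.10 to 0.0068 for Bub3, -0.121 to 0.054 for Ska3, -0.26 to 0.22 for Top2a, -0.76 to 1.14 for Defa24 and -0.54 to 0.10 for Fabp2. The causes were not tested. Of the values of the 39 named genes under the alternatives, 532 kept their direction and side of the threshold, 23 kept the direction alone and 28 turned sign or came to 0. Of these genes only Cenpm, Rprd1b and Chgb had passed the adjusted threshold, so the others had no call to lose. The filter, trend and replicate block settings leave log2 fold changes as they are, so no sign could turn there. The tally is therefore no measure of how stable the calls are. Depth limits Cenpm, Cenpo and Ska1 most, at an estimated 72.8, 75.4 and 96.6 reads in their lowest library.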
